A study of Mus musculus with 2 samples.

Results

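Lysosomal genes were examined in open chromatin maps of mouse bone marrow-derived mast cells, with 34 genes chosen by name out of 21631 protein-coding genes. They encode proteases, glycosidases, sulfatases, lipid hydrolases, membrane proteins and the transcription factors Tfeb and Tfe3. All peaks inside a gene's interval or within 10 kb of it were taken (mm10, 1-based coordinates). The 34 genes held 69 regions, a region being a peak, or a group of peaks of both lists that share at least 1 bp.

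The Dnmt3a knockout library came from mice labelled DNMT3A-KO, and the wild-type library from littermates, all females, aged 3 to 4 weeks in the growth protocol and 3 weeks in the design text. Dnmt3a is a de novo DNA methyltransferase. Both cultures were grown for 4 weeks with interleukin 3 until surface staining for Kit and FcεRIα was positive in over 95% of cells, and no treatment was applied. Whether the knockout was made in the germ line or in certain cells, and whether animals were pooled, is not given in the sources used here. ATAC-seq, in which the transposase Tn5 cuts accessible DNA, was read in 1 library per genotype. No value below could therefore be set against a spread between animals, intervals cover counting error only, and no test between genotypes was made.

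The authors' lists held 19684 knockout and 17170 wild-type peaks. Each peak carries a −log10 q-value and a fold enrichment, which rank it within its own list. The summit pileup, the number of overlapping reads, as the peak caller placed them, at the peak's highest point, was recovered from these values and had a median of 9 in both lists and a minimum of 3 in both. A region absent from a list was not called there, which at such depth does not show that the site was closed. In the Dnmt3a gene the knockout list held 5 peaks and the wild-type list 6. The strongest wild-type-only region there lay at chromosome 12, 3897094 to 3897359 (−log10 q 21.8). Of 10 mast cell marker genes 8 had a peak in the knockout list and 8 in the wild-type list, with 34 regions in all. Mrgprb1 had none, Hdc had a knockout-only and Fcer1a a wild-type-only region. Of 10 neutrophil, 10 macrophage and 10 B and T cell markers, 5, 7 and 6 had a knockout peak and 4, 6 and 4 a wild-type peak, with 6, 8 and 6 regions. Of all protein-coding genes, 55.5% had a knockout peak and 52.3% a wild-type peak in the same window. Both lists called 3 of the neutrophil, 4 of the macrophage and 4 of the B and T cell marker regions, among them those of Elane, Mpo, Cd14 and C1qa, whereas S100a9, Ly6g, Adgre1 and Lyz2 had no region. The part of other cells in the results below was not tested.

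Lysosomes break down proteins, sugars, sulfated glycans and lipids with hydrolases that work at acid pH, and inherited loss of many of these enzymes causes storage diseases. Mast cell granules are lysosome-related organelles: they hold lysosomal hydrolases beside proteases, histamine and heparin, and release of β-hexosaminidase is the usual measure of degranulation. Tfeb and Tfe3, relatives of the mast cell factor Mitf, bind E-box sites, among them the CLEAR element found in front of many lysosomal genes, and raise their transcription when nutrients are short.

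Most of these genes had accessible chromatin nearby in both genotypes. A knockout peak was found at 29 of 34 genes (85.3%, exact binomial 95% interval 68.9 to 95.0), against 55.5% of all protein-coding genes. A wild-type peak was found at 28 of 34 (82.4%, 65.5 to 93.2), against 52.3% of all. The median gene length was 18025 bp for these genes and 17329 bp for all protein-coding genes. Ctsh, Ctsl and Ctss, 3 genes of cysteine cathepsins, had no region. The nearest regions lay 37715 bp from Ctsh, 49083 bp from Ctsl and 14716 bp from Ctss. Of all protein-coding genes 40.8% had no region.

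Near these genes more regions were called in the knockout list alone than in the wild-type list alone, in a proportion close to that near all protein-coding genes. Of the 69 regions, 20 were knockout-only (29.0%, interval 18.7 to 41.2), 12 were wild-type-only (17.4%, 9.32 to 28.4) and 37 were shared (53.6%, 41.2 to 65.7). Over all 19084 regions within 10 kb of a protein-coding gene the shares were 27.1%, 16.2% and 56.7%. Among the unshared regions 62.5% were knockout-only (43.7 to 78.9), against 62.6% over all genes. The balance turned when both lists were given equal numbers of peaks, to 15 knockout-only and 17 wild-type-only regions (46.9%), and over all genes it then stood at 50.9%. More knockout-only than wild-type-only regions were found at 12 of 34 genes, against 19.3% of all protein-coding genes. More wild-type-only regions were found at 5 genes, against 10.6% of all. With equal numbers of peaks these counts were 6 and 7 genes. The shares of genes with more of either kind include genes without any region in the denominator. Such genes were 3 of these 34 and 40.8% of all, so the shares also reflect having a region at all. At Hexa, Cd63 and Man2b1 both kinds were equal in number, and 11 genes had shared regions and no others.

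**Figure D1:**
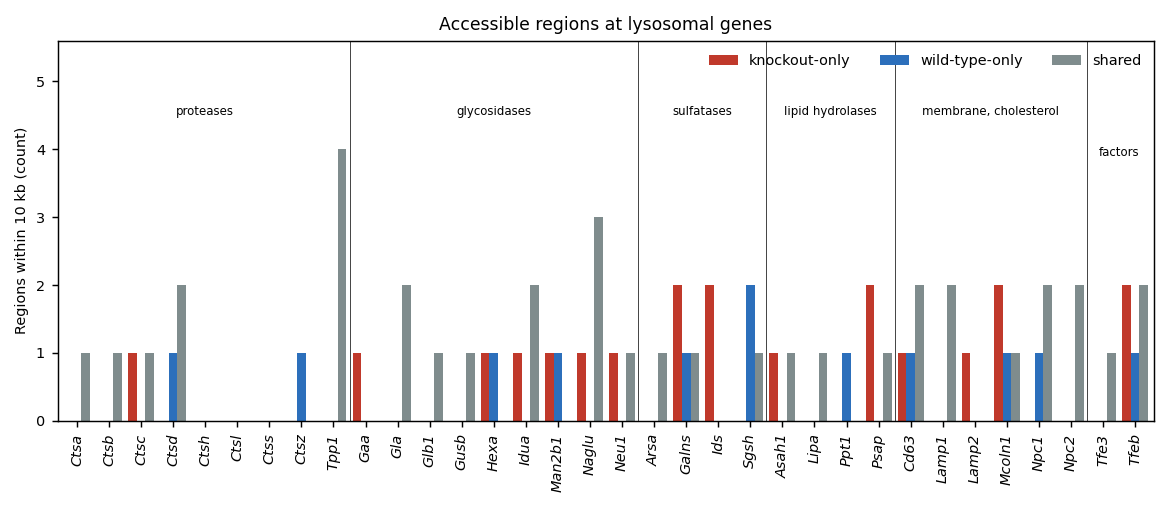
Number of knockout-only, wild-type-only and shared regions within 10 kb of each of the 34 genes, grouped by the role of the gene product. Tpp1 had 4 shared regions and no others, Tfeb had 5 regions of all 3 kinds, and Ctsh, Ctsl and Ctss had none.

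Promoter sequences were available from RefSeq (GRCm38.p6, the assembly released as mm10) for 29 of the 34 genes, as 34 windows that run from 250 bases before to 50 bases after an annotated transcription start. Ctsb, Ctsh, Npc1, Asah1 and Galns are not in that table. Both lists had a peak on 13 of these 34 promoters (38.2%, interval 22.2 to 56.4), against 24.9% of protein-coding promoters. The knockout list alone had one on 5 (14.7%, interval 4.95 to 31.1), against 5.08%, and the wild-type list alone on 4 (11.8%, 3.30 to 27.5), against 3.23%. A peak of either list lay on 22 of them (64.7%, 46.5 to 80.3), against 33.2%. These shares include promoters without any peak in the denominator, so they also reflect having a peak at all. Of the 22 promoters with a peak, 5 had it in the knockout list alone, 4 in the wild-type list alone and 13 in both. Of the 6995 protein-coding promoters with a peak, the counts were 1069, 680 and 5246. Knockout-only promoter peaks lay at Gaa, Ids, Lamp2, Mcoln1 and the second of 3 Tfeb promoters. Wild-type-only promoter peaks lay at Ctsz, Man2b1, Ppt1 and Sgsh.

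The E-box core CACGTG was found in 11 of the 34 promoters (32.4%, interval 17.4 to 50.5), against 7.2% of all 32619 promoters in the table and 7.91% of protein-coding ones. The longer palindrome TCACGTGA, which contains that core and is the centre of the CLEAR element, was found in 4 (11.8%, 3.30 to 27.5), against 0.981% of all and 1.24% of protein-coding promoters. Both motifs read the same on both strands. They were chosen because they are known from lysosomal genes, so a raised share was foreseen. The shares come from sequence alone and do not depend on either library. The 4 promoters belong to Ctsa, Ctsd, Gla and Mcoln1. A match to these letters is not evidence of binding. The 3 of these promoters that a peak overlapped are shown as the 250 bases before the start, with the matches in capitals, because they let the peaks of each genotype be placed against the motif. They lie at chr7:142387828-142388077 on the minus strand for Ctsd, chrX:134601006-134601255 on the minus strand for Gla and chr8:3500269-3500518 on the plus strand for Mcoln1.
Ctsd: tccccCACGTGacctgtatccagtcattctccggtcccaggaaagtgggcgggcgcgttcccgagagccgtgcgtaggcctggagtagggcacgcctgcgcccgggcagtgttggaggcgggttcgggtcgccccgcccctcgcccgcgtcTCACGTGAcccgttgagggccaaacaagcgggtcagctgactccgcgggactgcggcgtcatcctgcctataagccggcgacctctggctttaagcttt
Gla: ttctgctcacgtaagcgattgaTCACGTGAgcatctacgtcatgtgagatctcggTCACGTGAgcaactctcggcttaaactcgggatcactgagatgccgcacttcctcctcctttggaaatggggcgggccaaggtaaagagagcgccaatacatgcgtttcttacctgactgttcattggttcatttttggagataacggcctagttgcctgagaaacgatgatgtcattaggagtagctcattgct
Mcoln1: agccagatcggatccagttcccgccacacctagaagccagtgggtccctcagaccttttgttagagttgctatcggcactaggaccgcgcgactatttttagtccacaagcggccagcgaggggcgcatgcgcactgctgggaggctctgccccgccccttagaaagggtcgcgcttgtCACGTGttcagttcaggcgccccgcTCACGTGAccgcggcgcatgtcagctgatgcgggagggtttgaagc

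The peaks met these sites differently at the 3 genes. At Mcoln1, whose product is the lysosomal calcium channel TRPML1, the knockout list had a peak at chromosome 8, 3500341 to 3500529 (−log10 q 10.1, fold enrichment 8.33, summit pileup 9). It covered both matches, whose CACGTG begins at positions −71 and −45, counted from the annotated start. The nearest wild-type peak lay 15985 bp away. At Ctsd, which encodes the aspartic protease cathepsin D, the knockout peak (142387958 to 142388095, −log10 q 7.67, pileup 10) covered the CACGTG at position −245, which the overlapping wild-type peak (−log10 q 5.82, pileup 10) did not reach. The TCACGTGA with its core at position −98 lay in a wild-type-only region, 142387842 to 142387956 (−log10 q 8.03, pileup 12). That region was 2 bp from the region shared by both lists. At Gla, the gene of α-galactosidase A, the shared region 134601006 to 134601221 had a −log10 q of 13.4 in the knockout list and 11.8 in the wild-type list. The peaks of both lists covered the match with its core at position −194 and missed the one at −227. This region also overlaps Hnrnph2 and its promoter.

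Of the 18 CACGTG matches in the 34 promoters, 6 lay in a knockout peak, 5 in a wild-type peak and 10 in neither. Matches on 3 other promoters with a peak (Glb1, Naglu, Sgsh) and on 2 without (Lamp1, Ctsa) are shown to set accessible sites beside sites outside peaks. They are taken from the same RefSeq table, read in the direction of transcription, with the position of the capitalised CACGTG. In Ctsa the capitals mark TCACGTGA.
Glb1, chr9:114401030-114401035, plus strand: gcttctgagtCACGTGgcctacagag
Naglu, chr11:101070021-101070026, plus strand: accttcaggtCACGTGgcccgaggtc
Sgsh, chr11:119355534-119355539, minus strand: gcctgccgtgCACGTGaccgtgggga
Lamp1, site A, chr8:13159100-13159105, plus strand: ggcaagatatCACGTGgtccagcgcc
Lamp1, site B, chr8:13159116-13159121, plus strand: gtccagcgccCACGTGatgccgactg
Lamp1, site C, chr8:13159133-13159138, plus strand: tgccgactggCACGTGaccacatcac
Lamp1, site D, chr8:13159146-13159151, plus strand: gtgaccacatCACGTGcggaacggag
Ctsa, site A, chr2:164833761-164833766, plus strand: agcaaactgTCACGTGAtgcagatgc
Ctsa, site B, chr2:164833778-164833783, plus strand: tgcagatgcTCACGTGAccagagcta

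Sites of Glb1 and Naglu lay in peaks of both lists, and the Sgsh site lay at the very edge of a wild-type peak and in no knockout peak. The Gaa site lay in no peak, and the knockout peak of that promoter began 25 bases after the start. Lamp1, which encodes a lysosomal membrane glycoprotein, had 4 matches from position −61 to −15 and no peak of either list on that promoter. The sites of Ctsa, Arsa and Ctsl also lay outside all peaks. Member promoters with a peak held a median of 15 CpG dinucleotides (2 to 33) and those without held 7 (3 to 19). Over all protein-coding promoters the medians were 23 with a peak and 6 without.

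**Figure D2:**
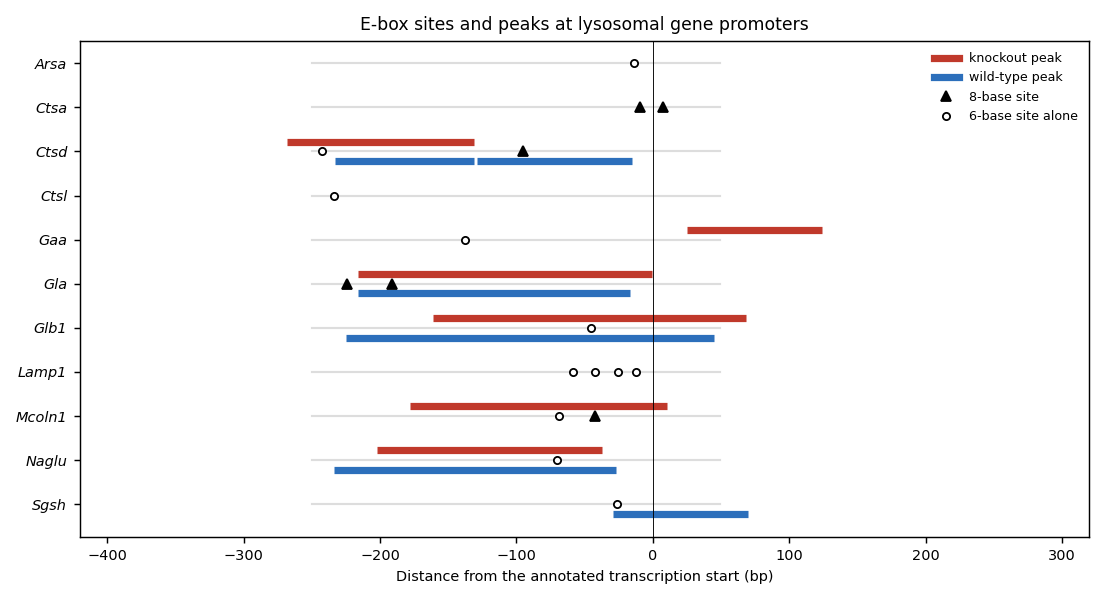
E-box matches and peaks at the 11 lysosomal gene promoters that hold CACGTG, by distance in bp from the annotated transcription start. Knockout peaks are drawn above and wild-type peaks below each promoter; filled triangles mark TCACGTGA and open circles CACGTG alone. The Mcoln1 promoter had a knockout peak alone, and the 4 Lamp1 sites lay outside all peaks.

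The 9 protease genes had 1 knockout-only, 2 wild-type-only and 9 shared regions. Over all protein-coding genes 27.1% of regions were knockout-only, 16.2% wild-type-only and 56.7% shared, the shares to set beside each group below. Tpp1, which encodes tripeptidyl peptidase, had 4 shared regions. The strongest lay over the promoter of Taf10, 227 bp beyond the end of Tpp1 (chromosome 7, 105744291 to 105744584), with a −log10 q of 18.1 in the knockout list and 21.6 in the wild-type list. The region on the Tpp1 promoter itself had values of 11.2 and 7.59. The remaining shared regions of Tpp1 belonged to other genes by distance. They overlapped Ilk, 5502 bp downstream, and the promoters of Ilk and Rrp8, 8125 bp downstream. Ctsc encodes the dipeptidyl peptidase that activates the serine proteases of mast cell granules. Its shared promoter region (chromosome 7, 88277837 to 88278181) had a −log10 q of 17.5 in the knockout list and 15.4 in the wild-type list, with summit pileups of 19 and 18. A knockout-only region (88319885 to 88319988, −log10 q 6.68) lay 4024 bp downstream of Ctsc, and the nearest wild-type peak was 41708 bp away. Ctsd had a second shared region 5405 bp upstream (−log10 q 10.8 in the knockout and 6.14 in the wild-type list).

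The other cathepsin genes had fewer regions. Ctsb, a cysteine protease gene, had 1 region, shared, over its lower end (chromosome 14, 63122460 to 63122729), with −log10 q values of 6.29 in the knockout and 6.89 in the wild-type list and a summit pileup of 7 in both. Ctsz, a carboxypeptidase gene, had 1 wild-type-only region on its promoter (chromosome 2, 174438876 to 174439029, −log10 q 6.46, pileup 7), with no knockout peak within 24969 bp. Ctsa encodes the carboxypeptidase that protects Glb1 and Neu1 in the lysosome. It had 1 shared region (15.3 in the knockout and 6.60 in the wild-type list), 9841 bp upstream and inside Zswim1, the region nearest to the 10 kb limit. Just outside that limit lay a knockout-only region 10160 bp from Gusb (chromosome 5, 129978712 to 129978851, −log10 q 8.89).

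The 9 glycosidase genes had 6 knockout-only, 2 wild-type-only and 10 shared regions, and 9 of them had a knockout peak against 8 with a wild-type peak. The strongest were promoter regions called in both libraries. Glb1, the β-galactosidase gene, had a −log10 q of 24.3 in the knockout and 17.9 in the wild-type list (chromosome 9, 114400853 to 114401146, pileups 22 and 18). Neu1, the sialidase gene, had 20.3 and 12.8 (chromosome 17, 34931114 to 34931368, pileups 16 and 11). Gusb, the β-glucuronidase gene, had 16.6 and 15.2 (chromosome 5, 130002833 to 130003072, pileups 16 and 14). These values lay above the medians over all peaks, 8.89 in the knockout and 8.49 in the wild-type list.

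Neither Hexa nor Man2b1 had a shared region. Hexa encodes the α subunit of β-hexosaminidase. It had a knockout-only region inside the gene, 233 bp from the start (chromosome 9, 59539773 to 59539872, −log10 q 5.37, pileup 6), and a wild-type-only region 2153 bp downstream (59567262 to 59567361, 4.69, pileup 5). Both were weak calls, below the median of their list. At Man2b1, the lysosomal α-mannosidase gene, a wild-type-only region lay on the promoter window, 406 bp inside the gene (chromosome 8, 85083136 to 85083296, −log10 q 12.0, pileup 13). It was the second strongest wild-type-only region at these 34 genes. A knockout-only region lay 1242 bp upstream, over Wdr83os (85081363 to 85081488, 7.13, pileup 10), 1648 bp from the wild-type one.

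Other glycosidase genes had knockout-only regions beside shared ones, or alone. Gaa, the acid α-glucosidase gene that serves glycogen breakdown, had a knockout-only promoter region as its only region (chromosome 11, 119267988 to 119268087). Its −log10 q of 3.58 and pileup of 4 were among the lowest here. Naglu and Idua encode enzymes of heparan sulfate breakdown. Naglu had a shared promoter region (chromosome 11, 101069860 to 101070067, −log10 q 11.3 in the knockout and 11.3 in the wild-type list) and a knockout-only region 4556 bp downstream (101082228 to 101082368, 8.30), which lay 180 bp from a wild-type peak, next to Coasy. Its remaining shared regions overlapped Coasy (8.02 in the knockout and 4.63 in the wild-type list) and Mlx (4.49 and 7.09). Idua had a shared region 400 bp inside the gene, on the promoter of Dgkq (12.9 in the knockout and 8.01 in the wild-type list). It also had one 8606 bp downstream on the Fgfrl1 promoter (15.3 and 8.95), and a knockout-only region 8796 bp inside the gene (chromosome 5, 108669127 to 108669306, 6.65). Neu1 had a knockout-only region 4218 bp downstream (34941515 to 34941614, 4.78), and the second region of Gla, shared, lay on the Rpl36a promoter (9.04 in the knockout and 11.9 in the wild-type list).

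The 4 sulfatase genes included the strongest knockout peak of the set, at Galns, and 2 modest knockout-only regions at Ids. There were 4 knockout-only, 3 wild-type-only and 3 shared regions in this group. Galns encodes the sulfatase of keratan sulfate and chondroitin sulfate. The shared region at its upper end (chromosome 8, 122611395 to 122611683), which also lies on the Trappc2l promoter, had a −log10 q of 48.2 in the knockout and 36.5 in the wild-type list (pileups 41 and 33). It held the strongest knockout peak at any of the 34 genes. A wild-type-only region 1258 bp below Galns, on the Aprt promoter (122576847 to 122576979, −log10 q 13.8, pileup 13), was the strongest wild-type-only region of all 34 genes. Galns also had knockout-only regions inside the gene (122585500 to 122585599, 7.89) and 6373 bp above it (122618074 to 122618173, 5.96).

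Ids, the iduronate sulfatase gene on the X chromosome, had a knockout peak at both of its sites and no wild-type peak. The first region (70385779 to 70385893, −log10 q 6.98, pileup 7) lay over the start of the gene and on the Eola1 promoter. The second (70365067 to 70365166, 7.68, pileup 7) lay on the internal Ids promoter that the table lists. The nearest wild-type peaks lay 828922 bp from the first and 849649 bp from the second. Sgsh, the heparan N-sulfatase gene, leaned the other way: a wild-type-only region lay on its promoter (chromosome 11, 119355440 to 119355539, −log10 q 4.55), 381 bp from a knockout peak, and another lay 3550 bp downstream inside Card14 (119339840 to 119339939, 6.16). Its shared region, 451 bp inside the gene, had values of 8.92 in the knockout and 8.30 in the wild-type list. Arsa, the arylsulfatase A gene, had 1 shared region (chromosome 15, 89476115 to 89476452), with 15.1 in the knockout and 14.6 in the wild-type list and a pileup of 15 in both.

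The 4 genes of lipid breakdown had 3 knockout-only, 1 wild-type-only and 3 shared regions. Asah1, the acid ceramidase gene, had a strong shared region inside the gene, 22786 bp from its nearer end (chromosome 8, 41374603 to 41374858). Its −log10 q was 32.1 in the knockout and 24.9 in the wild-type list, and its pileups were 28 and 22. Asah1 is not among the genes with promoter sequences, so whether this region lies on a transcription start was not known here. A weak knockout-only region lay elsewhere in that gene (41357726 to 41357825, 4.92, pileup 5). Lipa, the acid lipase gene, had 1 region, on its promoter (chromosome 19, 34527417 to 34527635), with 21.9 in the knockout and 16.7 in the wild-type list (pileups 18 and 15).

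Psap encodes prosaposin, the precursor of the saposins that present lipids to hydrolases. Its promoter region was weak in both lists (4.92 in the knockout and 5.30 in the wild-type list). A knockout-only region inside the gene, 11657 bp from the start (chromosome 10, 60289285 to 60289431, −log10 q 13.8, fold enrichment 10.4, pileup 14), was the second strongest knockout-only region at the 34 genes. The nearest wild-type peak lay 11605 bp away. Another knockout-only region lay 8838 bp downstream, inside Cdh23 (60311438 to 60311585, 7.70). Ppt1, which encodes a thioesterase that removes palmitate from proteins, had a single wild-type-only region on its promoter (chromosome 4, 122836155 to 122836254, 5.87, pileup 6), with no knockout peak within 35870 bp.

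The 6 genes of membrane proteins and cholesterol export had 4 knockout-only, 3 wild-type-only and 9 shared regions. Npc1 and Npc2 pass cholesterol out of the lysosome, Npc1 in its membrane and Npc2 in its lumen. Npc2 had the strongest wild-type peak of all 34 genes, on a promoter shared with Isca2 (chromosome 12, 84772893 to 84773319). Its −log10 q was 42.6 in the knockout and 44.9 in the wild-type list, and its pileups were 40 and 41. A weak shared region lay 8951 bp inside the gene (4.92 in the knockout and 4.54 in the wild-type list). Npc1 had a shared region over its upper end (chromosome 18, 12236320 to 12236577) with 23.4 in the knockout and 14.1 in the wild-type list. It had a further shared region inside the gene (5.09 and 6.82) and a wild-type-only region 853 bp below the gene, within Rmc1 (12188731 to 12188841, 7.32).

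The lysosome-associated membrane proteins Lamp1 and Lamp2 are the main glycoproteins of the lysosomal membrane. Lamp1 had a shared region 4417 bp inside the gene (chromosome 8, 13163578 to 13163796), with a −log10 q of 14.4 in the knockout and 5.85 in the wild-type list and pileups of 14 and 7. Its stronger shared region, 6122 bp downstream, lay inside Grtp1 (18.1 in the knockout and 22.6 in the wild-type list). Lamp2, on the X chromosome, had a knockout-only promoter region alone (38456429 to 38456541, −log10 q 5.09, pileup 5), and no wild-type peak lay within 108113 bp.

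Cd63, a tetraspanin of granule membranes that reaches the cell surface on degranulation, had 4 regions, all inside its interval. The shared ones (chromosome 10, 128909690 to 128909894 and 128910680 to 128910879) had −log10 q values of 9.87 and 5.14 in the knockout list and of 14.1 and 6.32 in the wild-type list. A knockout-only region (128906366 to 128906470, 6.12, pileup 10) and a wild-type-only region (128902522 to 128902621, 3.38, pileup 4) lay between these and the lower end of the gene. The Cd63 promoter window from RefSeq (128909095 to 128909394, plus strand) overlapped no peak. It lay between the shared regions and the unshared ones, with the unshared ones upstream of it. Besides the promoter peak described with its sequence, Mcoln1 had a knockout-only region on the Zfp358 promoter, 7314 bp upstream (3493023 to 3493205, 6.48). Beyond its other end, on the Pnpla6 promoter, it had a wild-type-only region (3516514 to 3516672, 6.74). That region lay 139 bp from a knockout peak, which belonged to a shared region (7.32 in the knockout and 8.20 in the wild-type list).

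Tfeb, a transcription factor that directs lysosome formation, had more regions than any other of the 34 genes. Its interval is also long, 55380 bp against a median of 18025 bp, though Glb1, with 73302 bp, had 1 region. Tfeb held 2 knockout-only, 1 wild-type-only and 2 shared regions. A shared region lay on the promoter at the start of the gene (chromosome 17, 47736935 to 47737087), with a −log10 q of 7.45 in the knockout and 6.46 in the wild-type list. Another lay 6384 bp inside the gene (47743421 to 47743656), with 14.5 and 15.6 and a pileup of 13 in both. A knockout-only region 17239 bp inside the gene (47754276 to 47754493, −log10 q 14.9, fold enrichment 10.9, pileup 13) was the strongest knockout-only region at the 34 genes, and the nearest wild-type peak lay 10672 bp away. A weak knockout-only region lay on the second promoter (47737805 to 47737904, 3.34, pileup 5), 734 bp from a wild-type peak. The wild-type-only region lay 1130 bp downstream (47793546 to 47793651, 5.02, pileup 5). Tfe3, on the X chromosome, had 1 region, shared and on its promoter (7762495 to 7762704), with 14.0 in the knockout and 10.9 in the wild-type list (pileups 13 and 11).

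**Figure D3:**
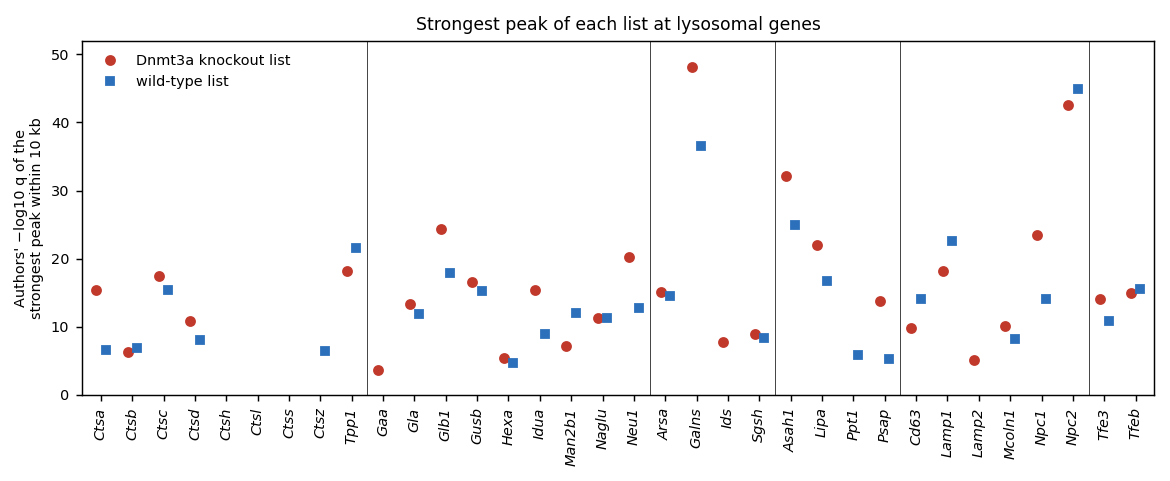
The −log10 q, as deposited, of the strongest knockout peak (circles) and the strongest wild-type peak (squares) within 10 kb of each gene. Galns and Npc2 lie highest in both lists, Gaa, Ids and Lamp2 have a knockout point alone, Ctsz and Ppt1 have a wild-type point alone, and values rank peaks within their own list.

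The unshared regions had lower medians of −log10 q, pileup and width than the shared ones. Knockout-only regions had a median −log10 q of 6.66 (3.34 to 14.9) and a median pileup of 7 (4 to 14). Wild-type-only regions had a median −log10 q of 6.31 (3.38 to 13.8) and a median pileup of 6.5 (4 to 13). Shared regions had medians of 13.4 in the knockout list (4.49 to 48.2) and 11.3 in the wild-type list (4.54 to 44.9), with median pileups of 13 and 11. A −log10 q of at least 10 was reached by 3 knockout-only regions, at Tfeb, Psap and Mcoln1, and by 2 wild-type-only regions, at Galns and Man2b1. The knockout-only share was then 60% at these genes, against 76.0% over all genes (576 knockout-only regions, and 182 that were wild-type-only). Median widths were 109 bp for knockout-only, 108.5 bp for wild-type-only and 210 bp for shared regions. A shared region spans peaks of both lists, so the merging itself adds to its width. Single peaks had a median width of 154 bp over the whole knockout list and 150 bp over the whole wild-type list.

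Some regions lay nearer to another gene. This held for 5 of the 20 knockout-only, 4 of the 12 wild-type-only and 11 of the 37 shared regions, counting those that overlapped another protein-coding gene but not the member. A further 1 wild-type-only region (at Sgsh) and 4 shared regions (at Glb1, Npc2, Galns and Idua) overlapped both the member and another gene. Within 200 bp of a peak of the other list lay 1 knockout-only and 2 wild-type-only regions. Within 1 kb of either end of their gene lay 30% of knockout-only (6 of 20, interval 11.9 to 54.3), 50% of wild-type-only (6 of 12, 21.1 to 78.9) and 54.1% of shared regions (20 of 37, 36.9 to 70.5). Over all pairs of a protein-coding gene and a region within 10 kb the shares were 27%, 30.3% and 43.1%. Within 2.5 kb of an end they were 35%, 83.3% and 62.2% at these genes, against 36%, 39.5% and 50.6% over all such pairs. The wild-type-only regions that the wider limit added lay downstream of Hexa and Tfeb and on other genes' promoters. Those promoters were of Pnpla6, beside Mcoln1, and of Aprt, beside Galns. Inside the gene interval lay 13 knockout-only, 5 wild-type-only and 23 shared regions.

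Further genes of the lysosome were taken from 6 lists. Hydrolases and cofactors outside the 34 had 28 regions of the knockout list alone and 7 of the wild-type list alone (80%, interval 63.1 to 91.6), against 62.6% over all genes. All 28 of these genes had a knockout peak, against 55.5% of all protein-coding genes, and 22 had a wild-type peak, against 52.3%. Arsb, the arylsulfatase B gene, had 6 of these 28 knockout-only regions and no other (5 overlapping it, the strongest at chromosome 13, 93771364 to 93771465). Their −log10 q ran from 3.58 to 7.20, below the median of 8.89 over all knockout peaks. The interval treats regions at the same gene as independent, so it is too narrow for a share by gene. With equal numbers of peaks in both lists the knockout-only share was 71.9% for this list, against 50.9% over all genes. Most genes of the other lists had peaks too. Knockout and wild-type peaks lay at 16 and 18 of 20 membrane protein genes and 16 and 16 of 17 proton pump genes. For sorting the counts were 30 and 28 of 34, for the Tfeb family 17 and 17 of 20, and for autophagy 22 and 21 of 23.

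Lysosomal membrane proteins outside the 34 had 6 regions of the knockout list alone and 6 of the wild-type list alone (50%, 21.1 to 78.9). Tpcn1, an endolysosomal cation channel gene, had 3 knockout-only regions inside it, Slc17a5, the sialic acid exporter gene, had 1, and Ctns, the cystine exporter gene, had 1 wild-type-only region (chromosome 11, 73199032 to 73199180, −log10 q 8.09). Subunits of the proton pump that acidifies the lysosome had 5 regions of the knockout list alone and 4 of the wild-type list alone (55.6%, 21.2 to 86.3). Atp6v1a had 2 knockout-only regions (1 overlapping it), Atp6v1d had 1, and Atp6v0b had 1 wild-type-only region. Genes of sorting and of lysosome-related organelles had 14 regions of the knockout list alone and 8 of the wild-type list alone (63.6%, 40.7 to 82.8). Gnptab, whose product starts the mannose 6-phosphate tag, had 3 knockout-only regions inside it, and Gga3, a sorting adaptor gene, had 2. Ap3b1, a subunit gene of the adaptor AP-3, had 1 knockout-only region and 3 that were wild-type-only, the strongest of them wild-type-only (chromosome 13, 94499824 to 94499943, 10.9).

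The list of the Tfeb family and nutrient sensing had 12 regions of the knockout list alone and 6 of the wild-type list alone (66.7%, 41.0 to 86.7). Rptor, the gene of the mTORC1 subunit raptor, had 4 knockout-only and 4 shared regions, the strongest knockout-only one with a −log10 q of 10.3 (chromosome 11, 119863437 to 119863572). Mitf had 3 knockout-only, 4 wild-type-only and 5 shared regions. Fnip2, a folliculin partner gene, had 1 knockout-only region (chromosome 3, 79519240 to 79519362, 12.8) and 3 shared ones. Autophagy genes had 10 regions of the knockout list alone and 6 of the wild-type list alone (62.5%, 35.4 to 84.8), with 2 knockout-only regions inside both Atg7 and Atg5 and 1 wild-type-only region near Sqstm1, the gene of the autophagy receptor p62. With equal numbers of peaks these lists, without the hydrolases and cofactors, had shares from 38.5% (autophagy) to 50% (Tfeb family), against 50.9% over all genes.

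**Figure D4:**
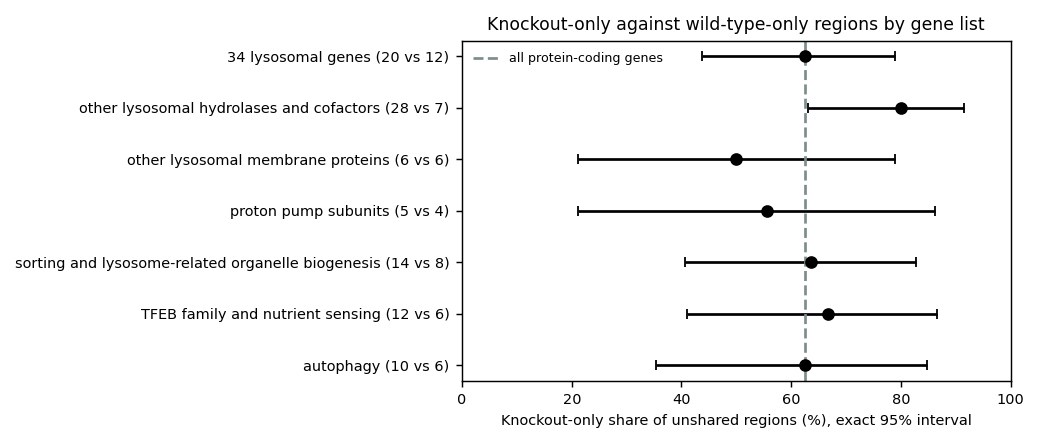
Share of knockout-only among unshared regions (%) for the 34 lysosomal genes and 6 further lists, with counts of knockout-only against wild-type-only regions, exact binomial 95% intervals for counting error, and the share over all protein-coding genes (62.6%) as a dashed line. The 34 genes lie on the line at 62.5%, and the further hydrolases and cofactors lie highest at 80%.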

How the data were processed

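Per the labels' protocols, nuclei were prepared with 0.1% Igepal, cut with home-made Tn5 and sequenced as single reads of 50 bp, with 10 M reads stated. The submitters' processing notes name Trimmomatic, Bowtie2, MACS2, mm10 and GRCm38. Neither versions and settings nor any move of read ends to the Tn5 cut site is given in the sources used here. The authors deposited 1 peak list per library with a score (the whole part of 10 times the −log10 q in 100% of peaks), a fold (ratio) of enrichment, −log10 p-values and −log10 q-values. From the deposited fold and −log10 p a whole-number summit pileup was recovered in 100% of peaks (pseudocount 1, tolerance 0.001 in −log10 p). These are the authors' own values and serve here to rank peaks inside each list. Library totals were not used here, so depth is judged from pileups, and intervals (exact Clopper-Pearson, 95%) cover counting error only.

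Peaks that shared at least 1 bp were merged and placed against RefSeq gene intervals of GRCm38.p6, which resolve no exons or introns, with Python 3.11.15, NumPy 2.4.6, pandas 2.3.3, SciPy 1.17.1 and matplotlib 3.10.9. The code was tested on simulated data. The members and lists were chosen with earlier results of these data known. Values are given for each unshared region and the strongest shared region of every member, and for up to 3 genes of each further list with the largest difference between the counts of knockout-only regions and wild-type-only ones, then by number of regions. A few genes chosen in this way are not reported here. Alternatives changed peak strength, list length, the overlap rule, the window, the assignment to genes and the chromosomes used.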

Additional observations from a re-analysis of the deposited data

How the results depend on the processing

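No paired analysis was possible because there was 1 library of each genotype. Of 121 values under other settings, 18 moved beyond their interval or by over 1.5 times, and 103 did not. With a −log10 q of at least 10 for unshared regions there were 3 knockout-only regions and 2 wild-type-only ones, 88.1% of all were shared, and 3 genes had more knockout-only and 2 more wild-type-only regions. With gene intervals alone there were 13 knockout-only, 5 wild-type-only and 23 shared regions from 35 knockout and 28 wild-type peaks, and the autophagy share was 88.9%, against 62.7% over all genes. That autophagy share rests on few regions, a part of the 10 knockout-only and 6 wild-type-only ones in the 10 kb window. With 50 kb on each side the numbers were 44, 23 and 73 regions from 117 and 98 peaks. With equal numbers of peaks 6 genes had more knockout-only regions, against 12 with the whole lists. Without chromosome X, knockout-only regions fell from 20 to 17 and wild-type-only ones stayed at 12. The knockout-only share was then 58.6%, and the share over all genes was not run in that way. Within 2.5 kb of a gene end lay 35% of the 20 knockout-only, 83.3% of the 12 wild-type-only and 62.2% of the 37 shared regions. The shares over all genes were 36%, 39.5% and 50.6%. The knockout-only share of unshared regions ran from 46.9% with equal numbers (50.9% over all genes) to 72.2% with gene intervals alone (62.7% over all genes). For the further lists equal numbers of peaks gave knockout-only shares of 71.9% (hydrolases), 46.2% (membrane proteins), 44.4% (proton pump), 44% (sorting), 50% (Tfeb family) and 38.5% (autophagy). The number of member peaks per library was not run with strength limits on unshared regions alone, with the other overlap rules or with the nearest gene only. Pileups of 4 to 14 at the unshared regions limit what a missing call shows.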
